A study of Mus musculus with 6 samples.

Results

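Regulators of G-protein signalling (RGS) encoded on chromosome 1 were followed in mouse retina at E15.5, a stage when ganglion cells and other early neurons form. The members were the 8 genes Rgs1, Rgs2, Rgs5, Rgs8, Rgs13, Rgs16, Rgs18 and Rgs20, found by gene symbol among 1140 complete rows of the authors' comparison, and each had 1 row. These rows cover chromosome 1 in part, and counts and ranks are over them alone. The rest of the chromosome and of the genome was not analysed here. The knock-in group, T2Isl1/+, carries Isl1 placed at the Tbr2 (Eomes) locus on 1 allele, so its expression follows that locus, which is active in a subset of ganglion cells. Isl1 and Eomes themselves were not analysed here, and the knock-in was not checked from its own transcript. The other group, T2fx/+, carries the Tbr2 allele that the submitters write as fx and call wild type, likewise on 1 allele. Both groups are C57BL/6, and each has 3 libraries, every one from a pool of 8 retinas, so an animal's own value is not seen. Levels are in FPKM, fragments scaled to transcript length and to the mapped fragments of the library, which corrects for transcript length and so allows levels to be set side by side between genes. The table gives 1 combined FPKM value per gene and group. Replicate spread, error and library depth are therefore unknown for every value that follows.

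RGS proteins bind the activated alpha subunit of heterotrimeric G proteins and speed the hydrolysis of its GTP, which ends signalling from G-protein-coupled receptors. They share an RGS domain and are sorted into subfamilies by the rest of the protein. Rgs1, Rgs2, Rgs5, Rgs8, Rgs13, Rgs16 and Rgs18 belong to the small R4 subfamily, and Rgs20 belongs to the RZ subfamily. In the adult retina RGS proteins are best known for setting how fast photoreceptors recover from light.

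The retina at this stage held transcripts of a part of the family, and the levels were close in both genotypes. Of the 8 members, 5 reached 1 FPKM in the higher group. None of the 6 members that the authors tested was called at their q-value (p adjusted for multiple testing) under 0.05, against 1.55% of all 646 tested rows. At an unadjusted p under 0.05 the count was also 0 of 6, against 3.72% of tested rows. With so few calls in the background, 0 of 6 says little about these genes. Summed over the 8 members, the level was 79.6 FPKM in T2Isl1/+ and 79.2 FPKM in T2fx/+ retinas, a ratio of 1.00.

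Rgs2 and Rgs16 were the most abundant members. Rgs2, which acts by preference on the Gq class of alpha subunits, had 29.4 FPKM in T2Isl1/+ and 28.5 FPKM in T2fx/+ retinas. Rgs16, an inhibitor of Gi and Gq signalling with a known circadian role in the hypothalamus, had 26.1 FPKM in T2Isl1/+ and 26.3 FPKM in T2fx/+ retinas. Together they made up 69.7% of the summed RGS level in T2Isl1/+ and 69.1% in T2fx/+ retinas. By level, Rgs2 ranked 135 in T2Isl1/+ and 146 in T2fx/+ among the 646 tested rows, and Rgs16 ranked 159 in T2Isl1/+ and 156 in T2fx/+. Rgs16 thus exceeded 75.4% of tested rows in T2Isl1/+ and 75.9% in T2fx/+, and both genes stood above the median of 10.4 FPKM in T2Isl1/+ and 10.7 FPKM in T2fx/+.

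Rgs8 and Rgs5 came next. Rgs8, a neuronal member well known from cerebellar Purkinje cells, had 14.6 FPKM in T2Isl1/+ and 14.2 FPKM in T2fx/+ retinas, also above the median. Rgs5, a marker of pericytes, the contractile cells on small vessels, had 7.18 FPKM in T2Isl1/+ and 7.55 FPKM in T2fx/+ retinas. Rgs20, also called RGSZ1 and selective for the Gz alpha subunit, had 1.61 FPKM in T2Isl1/+ and 1.71 FPKM in T2fx/+ retinas. Only 13.3% of tested rows were lower than Rgs20 in T2Isl1/+ and 13.8% in T2fx/+.

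The members known from blood and immune cells were low or at 0. Rgs13, of germinal centre B cells and mast cells, had 0.701 FPKM in T2Isl1/+ and 0.928 FPKM in T2fx/+ retinas. Rgs1, of activated lymphocytes, had 0.0545 FPKM in T2Isl1/+ and was listed at 0 in T2fx/+. Rgs18, of platelets and megakaryocytes, was listed at 0 in T2Isl1/+ and had 0.0217 FPKM in T2fx/+. The authors did not test Rgs1 or Rgs18, and no fold change is given for either, since 1 group is at 0. The highest level of any row left untested was 0.516 FPKM. Markers of blood and immune cells, from a list of 45 genes with 27 rows, summed to 3.32 FPKM in T2Isl1/+ and 3.46 FPKM in T2fx/+ retinas. Single rows of that list ran from 0 to 1.15 FPKM in T2Isl1/+ and from 0 to 1.20 FPKM in T2fx/+. The highest was Ikzf2, a transcription factor of lymphocytes. The pan-leukocyte gene Ptprc had 0.092 FPKM in T2Isl1/+ and 0.139 FPKM in T2fx/+. The part of such cells in the Rgs13 level was not tested.

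**Figure D1:**
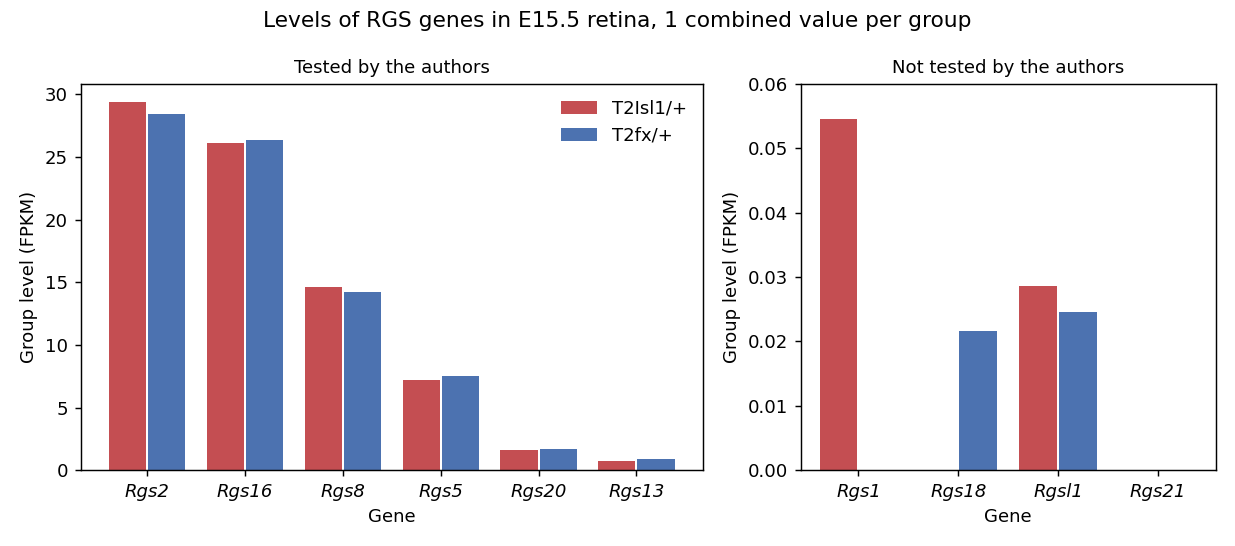
Group level in FPKM of each RGS gene with a row, with T2Isl1/+ bars in red and T2fx/+ bars in blue. Each bar is the authors' 1 combined value, so there is no error bar, and the right panel has its own axis, up to 0.06 FPKM, for the genes not tested. Rgs2 and Rgs16 stand at 26.1 to 29.4 FPKM in both groups, while Rgs1, Rgs18 and Rgsl1 stay at or under 0.0545 FPKM and Rgs21 is at 0.

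The order of the members was the same in both genotypes down to Rgs13, namely Rgs2, Rgs16, Rgs8, Rgs5, Rgs20 and Rgs13. Rgs2 exceeded Rgs16 by 1.13-fold in T2Isl1/+ and 1.08-fold in T2fx/+. That gap is the narrowest in the order, and without replicate values it cannot be said whether it exceeds their spread. Rgs16 was 1.79-fold above Rgs8 in T2Isl1/+ and 1.85-fold in T2fx/+. Rgs8 was 2.03-fold above Rgs5 in T2Isl1/+ and 1.89-fold in T2fx/+. The widest gap among the 5 expressed members lay between Rgs5 and Rgs20, at 4.45-fold in T2Isl1/+ and 4.42-fold in T2fx/+. From the highest to the lowest of these 5 genes, levels spanned 18.2-fold in T2Isl1/+ and 16.7-fold in T2fx/+ retinas. Each gene of the 5 differed between the genotypes by at most 1.06-fold.

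Sequences upstream of the transcript start are shown for the 5 members with an entry in the RefSeq promoter table (build GRCm38.p6, the assembly of mm10), since their base composition followed the order of the levels, a feature chosen after the levels were known. Each line gives the 250 bases before the start, 5' to 3' on the gene's strand, and capitals mark CpG dinucleotides, the sites of DNA methylation. For Rgs8 the first of 3 annotated starts is shown, the one at the start of the authors' locus.
Rgs2 (chr1:144004150-144004399, minus strand): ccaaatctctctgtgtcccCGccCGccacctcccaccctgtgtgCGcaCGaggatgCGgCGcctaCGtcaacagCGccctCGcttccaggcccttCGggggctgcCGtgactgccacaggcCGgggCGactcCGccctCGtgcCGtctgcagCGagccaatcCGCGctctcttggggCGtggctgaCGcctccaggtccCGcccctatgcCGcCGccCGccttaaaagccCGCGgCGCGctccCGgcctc
Rgs16 (chr1:153740103-153740352, plus strand): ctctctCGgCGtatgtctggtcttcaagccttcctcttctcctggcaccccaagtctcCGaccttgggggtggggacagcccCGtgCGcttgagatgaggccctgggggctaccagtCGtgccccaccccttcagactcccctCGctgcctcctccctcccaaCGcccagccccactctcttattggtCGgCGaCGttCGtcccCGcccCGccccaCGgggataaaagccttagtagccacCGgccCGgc
Rgs8 (chr1:153652787-153653036, plus strand): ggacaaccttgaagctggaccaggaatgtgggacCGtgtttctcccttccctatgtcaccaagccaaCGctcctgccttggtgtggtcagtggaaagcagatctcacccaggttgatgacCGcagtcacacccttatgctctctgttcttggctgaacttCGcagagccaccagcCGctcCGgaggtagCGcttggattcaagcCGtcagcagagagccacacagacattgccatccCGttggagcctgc
Rgs5 (chr1:169655251-169655500, plus strand): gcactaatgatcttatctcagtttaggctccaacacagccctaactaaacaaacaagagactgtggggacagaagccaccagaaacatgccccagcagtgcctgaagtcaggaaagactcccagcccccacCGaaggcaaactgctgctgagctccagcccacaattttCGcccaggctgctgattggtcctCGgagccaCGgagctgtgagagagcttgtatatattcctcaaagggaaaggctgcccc
Rgs13 (chr1:144177373-144177622, minus strand): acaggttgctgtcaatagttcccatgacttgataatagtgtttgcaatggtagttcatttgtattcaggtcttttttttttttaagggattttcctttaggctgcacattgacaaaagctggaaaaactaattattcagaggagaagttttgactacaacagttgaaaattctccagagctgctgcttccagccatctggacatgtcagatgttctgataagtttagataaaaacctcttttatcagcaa

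Rgs2 held 30 CpG dinucleotides in its 250 bases, Rgs16 held 17, Rgs8 held 9, Rgs5 held 4 and Rgs13 held 0. These genes had 29.4, 26.1, 14.6, 7.18 and 0.701 FPKM in T2Isl1/+ retinas, so in this set the counts and the levels fell in the same order. The set lacks Rgs20, an expressed member, and also Rgs1 and Rgs18, since none of them had a promoter entry. Upstream of Rgs2, 72.4% of bases were G or C, against 36.0% upstream of Rgs13. Over all 32851 promoter entries the median was 6 CpG dinucleotides. Among genes with a row on chromosome 1, counted at their CpG-richest entry, the median was 17 for the 500 tested genes found in the table and 4 for the 314 genes not tested. Rgs16 therefore matched the median of tested genes, Rgs2 lay above it, and Rgs8, Rgs5 and Rgs13 lay below it although all 3 were tested. The start of Rgs8 shown is the CpG-richest of its 3. The other 2 family genes with a row, Rgs21 and Rgsl1, had an entry too and held 2 CpG dinucleotides each, more than Rgs13. Their levels were lower than that of Rgs13, so the order did not extend to them.

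**Figure D2:**
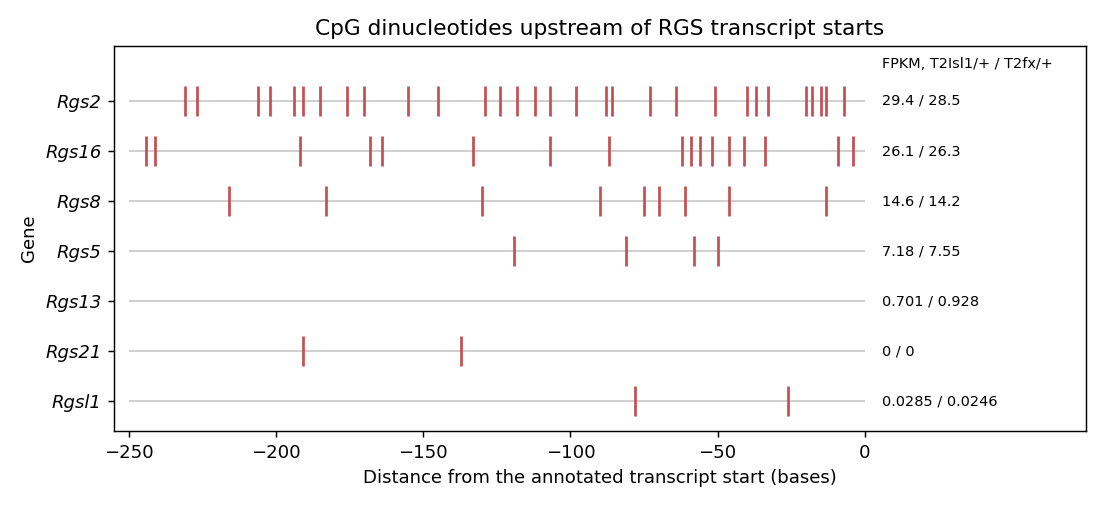
Position of each CpG dinucleotide (red ticks) in the 250 bases before the annotated transcript start, in bases from that start, with the T2Isl1/+ and T2fx/+ levels in FPKM at the right of each row. Ticks are dense for Rgs2 with 30 and Rgs16 with 17, sparse for Rgs8 with 9 and Rgs5 with 4, and absent for Rgs13. Rgs21 and Rgsl1 have 2 each, more than Rgs13, at lower levels than Rgs13.

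The same 250 bases were searched on both strands for TATAAA (the core of the TATA box), TGACGTCA (the cyclic AMP response element), CANNTG (the E-box) and TAATTA (a homeodomain core). No exact match to these motifs lay upstream of Rgs2, Rgs16, Rgs8 or Rgs5. Variants of the motifs, such as the TATA-like stretch tatatat upstream of Rgs5, were not searched for. Upstream of Rgs13 there were 4 matches to CANNTG and 1 to TAATTA, and none to the other motifs. Of all promoter entries, 66.2% held CANNTG, 4.84% held TAATTA, 12.4% held TATAAA and 1.55% held TGACGTCA. No match of one of these motifs overlapped another in the Rgs13 sequence.

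Between the genotypes, the differences at the expressed members were small. In the authors' deposited table the log2 fold change of T2Isl1/+ over T2fx/+ was 0.05 for Rgs2, with an unadjusted p of 0.688. For Rgs8 the authors' deposited table gave 0.03 on the log2 scale, with p = 0.770. Rgs16 had the smallest difference, -0.01 on the log2 scale with p = 0.918 in the authors' deposited table, and 92.9% of all tested rows differed by more. Rgs5 had a log2 fold change of -0.07 and p = 0.647 in the authors' deposited table. Rgs20 had -0.08 on the log2 scale and p = 0.779 there, in the authors' deposited table. The q-value of each tested member was 0.9997 in the authors' deposited table. Taken as percentages, the T2Isl1/+ level relative to T2fx/+ differed by 3.21% for Rgs2, 2.37% for Rgs8, -0.80% for Rgs16, -4.88% for Rgs5 and -5.52% for Rgs20. A p of this size does not show that levels were equal, and the table holds no interval for these differences.

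Rgs13 had the most negative fold change of the members and also the lowest tested level. Its log2 fold change was -0.40, with an unadjusted p of 0.410, in the authors' deposited table. With a pseudocount of 1 FPKM added to the authors' values it was -0.18. Of all 646 tested rows, 36 differed by more. The spread of fold changes between genes widened at low levels: the median absolute log2 fold change was 0.23 over the 50 tested rows under 1 FPKM in both groups. It was 0.13 over the 139 rows from 1 to 5 FPKM and 0.08 over the 457 rows at 5 FPKM or more. Of the 50 rows under 1 FPKM, 12 had an absolute fold change at least as large as that of Rgs13, Rgs13 included, and 0 were called. Among the 6 tested members, 2 log2 fold changes were above 0 and 4 below, with a median of -0.04 against 0.01 over all tested rows. The smallest fold among the 10 rows called was 1.79.

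**Figure D3:**
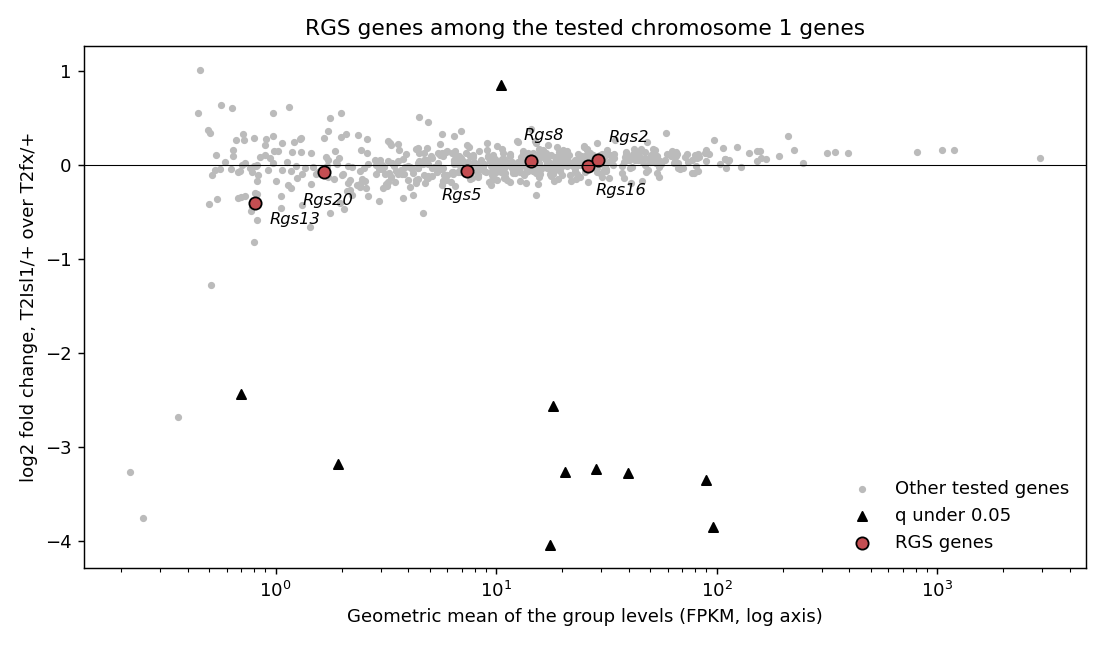
Log2 fold change of T2Isl1/+ over T2fx/+ (vertical axis) against the geometric mean of the 2 group levels in FPKM (horizontal log axis) for 646 tested rows of chromosome 1. RGS genes are red circles, rows with q under 0.05 are black triangles and all others are grey. The red circles other than Rgs13 lie between -0.08 and 0.05, and Rgs13, at the low end of the level axis, lies at -0.40.

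The members lie in groups along the chromosome. Rgs2, Rgs13, Rgs1 and Rgs18 occupy 776 kb of the minus strand, from 143999338 to 144775421 on chromosome 1 (mm10), together with Rgs21. In that run 1 gene was at a high level: Rgs2 (143999338 to 144004149) had 29.4 FPKM in T2Isl1/+ and 28.5 FPKM in T2fx/+. Rgs13 (144138667 to 144177372) and Rgs1 (144244669 to 144249104) follow it, with the levels given above. Rgs21 (144519690 to 144567667), a gene described in taste cells, was listed at 0 in both groups. Rgs18 (144752841 to 144775421) closes the run. Outside the family, the rows within 500 kb of Rgs2 were B3galt2, Glrx2, Uchl5, Cdc73 and Trove2, and their levels ran from 3.89 to 27.8 FPKM in T2Isl1/+ and from 3.34 to 25.8 FPKM in T2fx/+ retinas. These 5 genes had log2 fold changes from -0.01 for Trove2 to 0.22 for B3galt2 in the authors' deposited table, and 0 were called.

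Rgs8 (153653037 to 153697668) and Rgs16 (153740353 to 153745468) form a pair on the plus strand, 42685 bases apart, and both were expressed. Rgsl1 (153779387 to 153844141, minus strand), an RGS-like gene beyond Rgs16, had 0.0285 FPKM in T2Isl1/+ and 0.0246 FPKM in T2fx/+ and was not tested. Rgs5 (169655499 to 169695789, plus strand) and Rgs20 (4909576 to 5070285, minus strand) stand apart from the other family genes with a row. All 5 rows within 500 kb of Rgs20 (Lypla1, Tcea1, Atp6v1h, Sox17 and Mrpl15) had positive log2 fold changes, from 0.07 to 0.17 in the authors' deposited table, with 0 called, while Rgs20 itself was at -0.08. Other neighbourhoods were mixed. Of the 6 tested rows near Rgs8, family rows included, 2 were above 0 and 4 below. Near Rgs16, 3 were above 0 and 3 below, and near Rgs5 the 1 tested row was above 0. None of these rows was called. GENCODE M21 names 12 RGS genes on chromosome 1, and Rgs4 and Rgs7 were not analysed here. Whether either of them adjoins a member was not examined.

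Reads could be shared with other genes at a few places. Exons of Rgs8 and Rgs16 overlap the antisense genes Gm29529 by 70 bases and Gm28513 by 236 bases in GENCODE M21. Exons of Rgs20 overlap Atp6v1h, on the opposite strand, by 127 bases. No source used here says whether counting kept the strand, so reads in those stretches cannot be told apart. In the authors' loci Atp6v1h and Rgs20 lie 12808 bases apart. Atp6v1h had 46.7 FPKM in T2Isl1/+ and 42.5 FPKM in T2fx/+, against 1.61 and 1.71 FPKM for Rgs20. The part of Atp6v1h reads in the low Rgs20 level was not tested. Between members, the longest identical run in the coding sequence was 24 bases, shared by Rgs8 and Rgs16, over 28 pairs. In the longest annotated transcripts it was 33 bases, between Rgs8 and Rgs20. The coding sequences of the R4 members are short, from 158 codons, the stop left out, for Rgs13 to 235 codons for Rgs18. Rgs16 has 201 codons and Rgs8 has 180.

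The other genes of the pathway were read from lists of receptors, G protein subunits and effectors. Many listed genes had no row here, so the pathway is seen only in part. A row was found for 23 of 52 receptor genes, 2 of 44 subunit and modulator genes and 14 of 50 effector genes. None of their tested rows was called. For G-protein-coupled receptors, 7 of 24 rows were tested, with 5 log2 fold changes above 0 and 2 below and a median of 0.10. The chemokine receptor gene Cxcr4 was the highest, at 39.7 FPKM in T2Isl1/+ and 37.5 FPKM in T2fx/+ retinas. Gpr161, a receptor of the primary cilium, had 14.4 FPKM in T2Isl1/+ and 16.7 FPKM in T2fx/+, and Adgrb3, an adhesion receptor, had 8.16 FPKM in T2Isl1/+ and 7.62 FPKM in T2fx/+. The secretin receptor gene Sctr had 2 rows, with log2 fold changes of 0.55 (p = 0.178) and 0.63 (p = 0.290) in the authors' deposited table. Both rows are among the 5 above 0. The first had 1.17 FPKM in T2Isl1/+ and 0.802 FPKM in T2fx/+. The second was under 1 FPKM in both groups, at 0.703 FPKM in T2Isl1/+ and 0.455 FPKM in T2fx/+. Ackr3, a scavenger receptor for the ligand of Cxcr4, had 0.32 on the log2 scale and p = 0.0959 in the authors' deposited table.

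For effectors and second-messenger genes, 8 of 14 rows were tested, with 5 above 0 and 3 below and a median log2 fold change of 0.01. Pde6d, which carries prenylated proteins, had 54.4 FPKM in T2Isl1/+ and 49.4 FPKM in T2fx/+ retinas. Creb1, the transcription factor at the end of cyclic AMP signalling, had 24.0 FPKM in T2Isl1/+ and 23.7 FPKM in T2fx/+. The phosphatase gene Inpp4a had 9.67 FPKM in T2Isl1/+ and 10.1 FPKM in T2fx/+, and the phospholipase gene Pla2g4a had 1.07 FPKM in T2Isl1/+ and 0.970 FPKM in T2fx/+. No G protein subunit gene of the list had a row. Of their modulators, 1 of 2 rows was tested. It was Pdc (phosducin), which binds the beta-gamma dimer in photoreceptors, with 11.4 FPKM in T2Isl1/+ and 11.2 FPKM in T2fx/+. The visual arrestin gene Sag was untested, at 0.149 FPKM in T2Isl1/+ and 0.253 FPKM in T2fx/+. The RGS levels thus stood beside a pathway in which Rgs2 and Rgs16 were higher than all tested receptors of the list other than Cxcr4. The list of other RGS-domain genes had 2 rows, Rgs21 and Rgsl1, and none tested.

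**Figure D4:**
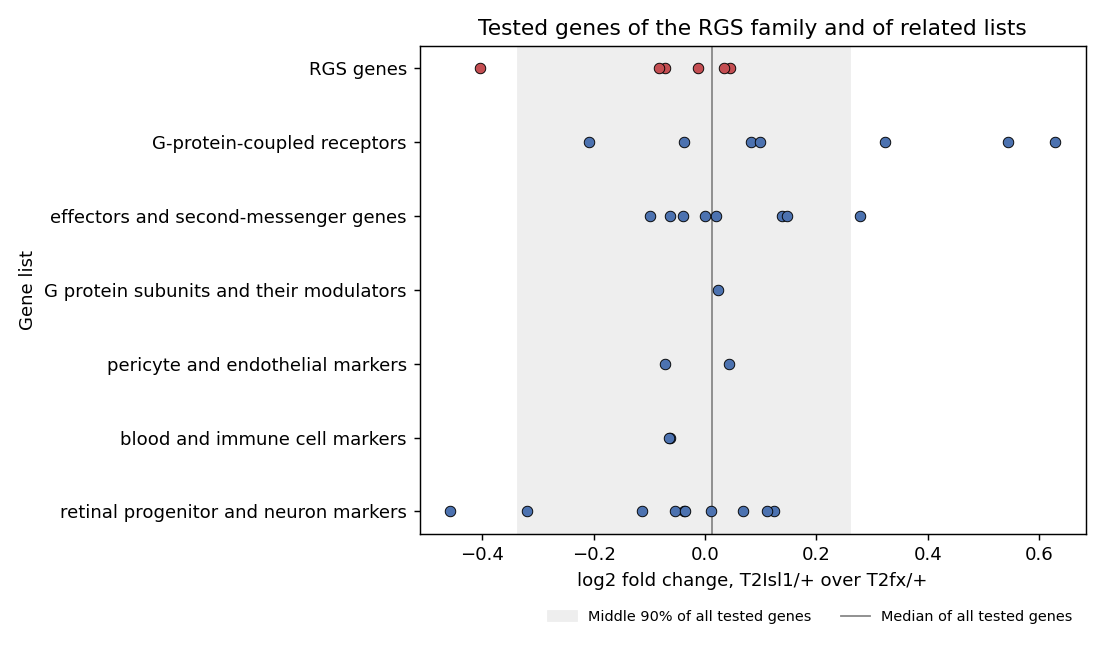
Log2 fold change of T2Isl1/+ over T2fx/+ for each tested gene (points) of the RGS family (red, top row) and of related lists (blue), over the middle 90% of all tested genes (grey band, -0.34 to 0.26) and their median (line, 0.01). Of the RGS genes, Rgs13 alone lies outside the band, at -0.40.

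Marker genes of other cells were set beside the members. For Rgs5, the other pericyte and endothelial markers with a row were Cd34, Des, Selp and Sele. Cd34, of endothelial and progenitor cells, had 6.86 FPKM in T2Isl1/+ and 6.66 FPKM in T2fx/+, and Des, an intermediate filament gene of muscle and pericytes, had 0.303 FPKM in T2Isl1/+ and 0.408 FPKM in T2fx/+. Without Rgs5 these 4 rows summed to 7.17 FPKM in T2Isl1/+ and 7.07 FPKM in T2fx/+ retinas. Des was not tested by the authors, and the cells that gave the Rgs5 RNA were not identified here. In whole retina the number of cells of a type and the RNA per cell cannot be told apart, for Rgs5 or any other member. Retinal markers were present, with Hes6 at 414 FPKM in T2Isl1/+ and 380 FPKM in T2fx/+. Of their list of 34 genes, 10 had a row. All 10 rows were tested, with 4 above 0 and 6 below on the log2 scale and a median of -0.04. The progenitor receptor gene Fzd5 had 66.2 FPKM in T2Isl1/+ and 68.0 FPKM in T2fx/+, and Btg2, an antiproliferative gene of neurogenic progenitors, had 83.4 FPKM in T2Isl1/+ and 79.5 FPKM in T2fx/+. The widest differences in this list were at the transcription factor genes Lhx9, with -0.46 on the log2 scale (p = 0.158), and Tfap2b, with -0.32 (p = 0.008, q = 0.807), in the authors' deposited table. Lens markers differed between the groups: 7 of 7 tested rows were lower in T2Isl1/+, and all 7 were called. Their list summed to 93.6 FPKM in T2Isl1/+ against 1038 FPKM in T2fx/+. No RGS member moved with them past the authors' threshold, and the part of lens tissue in the RGS levels was not tested.

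By the values of both groups, the tested genes nearest to each expressed member were named by the distance between their log2 levels, over 2 group values. They were Rnpep and Ppp1r15b for Rgs2 (distances 0.03 and 0.03), Lman2l and Tagln2 for Rgs16 (0.02 and 0.03) and Cnst and Desi2 for Rgs8 (0.03 and 0.04). For Rgs5 they were Slc30a1 and Rab3gap1 (0.02 and 0.03), and for Rgs20 they were Spats2l and Tuba4a (0.08 and 0.09). With only 2 values per gene such likeness is a matter of level.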

How the data were processed

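Total RNA of 6 retina libraries was sequenced on Illumina instruments. Per the submitters' processing notes, CASAVA was used along with TopHat2 2.1.1, the build mm10 and Cufflinks 2.1.1. No source used here names the gene annotation. The columns of the deposited file are those that Cuffdiff writes for genes. Its group levels were read as FPKM, a unit inferred from the named tools since the deposited header says only value, and the authors had combined the 3 libraries of each group. The log2 fold change, without a pseudocount, and the p-value and q-value are the authors', per the file headers. The authors' test score, per the file headers, was not used.

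The table held 1140 complete rows, of which 646 were tested by the authors. 1 incomplete row was left out. Single genes were not tested anew. Called means a q-value under 0.05. Table starts count from 0, so 1 was added. Gene models, transcript lengths and overlaps came from GENCODE M21, and promoters from RefSeq (GRCm38.p6), with an entry for 5 of 8 members. Work used Python 3.11.15 with pandas 2.3.3, and the Benjamini-Hochberg step was tested on simulated data. The members and the 8 gene lists were chosen with earlier results of these data known. Named genes were all members and, per list, rows called (at most 3), the 3 highest tested rows and the 2 with the largest absolute log2 fold change at 1 FPKM or more, with rows within 500 kb of a member as neighbours. Sag and the untested marker genes were named outside the rule, after their values were seen. Of the lens list, the count called and the sum are given. The labels do not say whether pools came from separate litters, so the authors' p-values may measure technical spread.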

Additional observations from a re-analysis of the deposited data

How the results depend on the processing

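The count of called RGS members stayed at 0 with an unadjusted p under 0.05, with a q-value under 0.01 and with Benjamini-Hochberg adjustment over the tested rows alone. The authors' smallest unadjusted p for a member was 0.410, so none of these settings could have raised the count. The log2 fold changes of the 6 tested members kept their sign with pseudocounts of 1 and 0.1 FPKM and with the median of all tested rows (0.01) subtracted. A pseudocount cannot change a sign. With a pseudocount of 1 FPKM, Rgs13 became -0.18, against -0.40 without, and Rgs20 -0.05, against -0.08. With the median subtracted, Rgs16 became -0.02, against -0.01, and Rgs8 0.02, against 0.03. The count of expressed members was 6 at a floor of 0.5 FPKM, where Rgs13 joins, 4 at 5 FPKM, where Rgs20 drops out, and 5 when the lower group value was used. Over all tested rows, 10 were called, 24 at an unadjusted p under 0.05, 0 at a q-value under 0.01 because all calls share a q-value of 0.0116, and 3 without lens genes. No paired analysis was possible because the processed table merges the libraries of each group and no column carries a replicate number. Leaving out single libraries could not be done for the same reason, and depth, which limits the low members Rgs1, Rgs13 and Rgs18 most, is unknown.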
